A study of Mus musculus with 15 samples.

Results

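The response of macrophages to SNP50, a solid nonporous silica nanoparticle, was described by comparing 3 SNP50-treated libraries with 3 nontreated Control libraries, 6 of the 15 libraries of the study. The members were taken by their labels. All cells were RAW264.7, a mouse macrophage cell line, cultured in RPMI medium with fetal bovine serum. The SNP50-treated group received particles of a nominal 50 nm diameter at 25 µg/mL, and the nontreated controls received no particles. Both groups were collected at 6 h. The question the comparison addresses is which genes change when macrophages are loaded with this particle at a dose that is not toxic to them. The other libraries belonged to cells treated for 6 h with SNP100 (a nonporous particle of nominal 100 nm at 50 µg/mL), MSNP (mesoporous, 200 µg/mL) and HMSNP (hollow mesoporous, 200 µg/mL), and they entered the statistical model to give a shared estimate of the spread.

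Macrophages take up particles by phagocytosis, macropinocytosis and receptor-mediated endocytosis and deliver them to lysosomes. Scavenger receptors of the cell surface recognise modified lipoproteins, dying cells and many foreign surfaces, and pattern recognition receptors start inflammatory transcription through NF-κB, AP-1 and interferon regulatory factors. Stress in these cells is commonly read out through ATF4 (amino acid and endoplasmic reticulum stress), NRF2 (oxidants and electrophiles), heme oxygenase, and the lysosomal program driven by TFEB and TFE3, which folliculin and the Rag GTPases control.

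The libraries held 29369934 to 39704827 counts on genes, and the values below are CPM, counts scaled to a common library total after TMM normalization, which corrects for differences in composition. All 15 macrophage marker genes were detected, with a summed level of 17996 to 22453 CPM in the controls and 18283 to 18912 CPM in the SNP50-treated group, and 0 of the 15 passed the test. Of the markers of other cell types, Lck, a kinase of T cells, had the highest level, at 5.64 to 8.17 CPM, and the summed levels of the B cell, neutrophil, fibroblast and endothelial markers did not exceed 3.31 CPM in any of the 6 libraries. The 5 epithelial markers had too few counts to be tested. Nothing in the labels says that the 3 libraries of a group came from separate cultures, so the spread behind the p-values may be technical. That spread was estimated for each gene over all 15 libraries and is not the spread of the 6 libraries compared. The control libraries differed more among themselves than the SNP50 libraries did. The library names of each group also begin with a number of their own, whose meaning the labels do not give, so whatever it marks and the treatment cannot be told apart. In cells measured in bulk, fewer cells of a kind and less RNA per cell cannot be told apart.

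Control replicate 3 stood apart from the other controls in a way that followed transcript length. Length here is that of all annotated exons of a gene merged, which can exceed the length of any single transcript. Among genes in the shortest of 10 length classes its median log2 CPM was 0.61 above the mean of Control replicates 1 and 2, and in the longest class it was 0.60 below. The mean of the SNP50-treated group differed from the mean of all 3 controls by -0.004 to 0.07 over the same classes. Against Control replicates 1 and 2 alone the difference ran from 0.20 in the shortest class to -0.11 in the longest. The 79 cytosolic ribosomal protein genes, which are short, summed to 42980, 40441 and 72156 CPM in the 3 controls and to 56377, 49125 and 48470 CPM in the SNP50-treated libraries. Control replicate 3 was thus the highest of the 6 libraries for these genes, and 0 of them passed the test with all controls while 69 did without that library. Control replicate 2 was the lowest of the 6 for mitochondrially encoded and replication-dependent histone genes. The 25 mitochondrial genes summed to 12828, 6410 and 11669 CPM in the controls and 17095, 11670 and 16518 CPM after SNP50. The 59 histone genes summed to 55.8, 38.5 and 69.1 CPM against 46.8, 41.0 and 47.2 CPM.

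**Figure D1:**
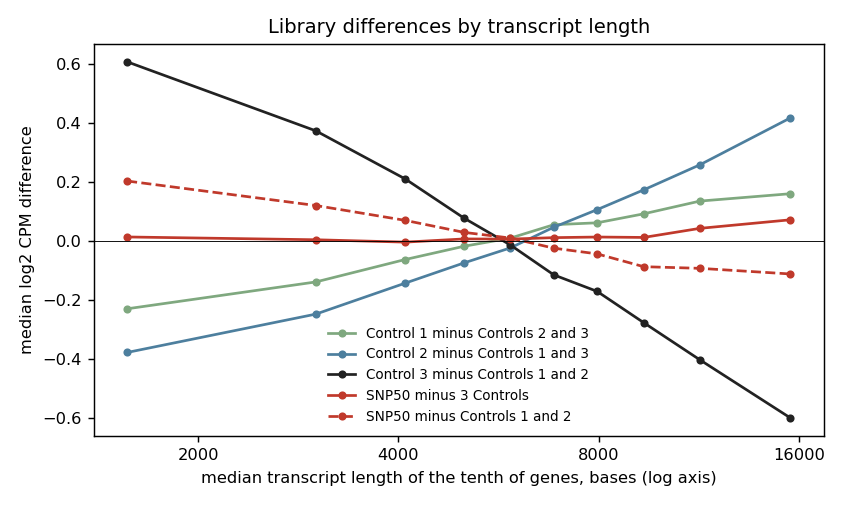
Median difference in log2 CPM (vertical axis) for 10 classes of genes ordered by transcript length (horizontal axis, bases, log scale). Length is that of the merged annotated exons of a gene. Each Control library is set against the other Controls, and the mean of SNP50 against all Controls or against Controls 1 and 2. The line of Control 3 falls from 0.61 to -0.60, while SNP50 minus all Controls stays between -0.004 and 0.07.

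Of 19839 genes tested with edgeR's quasi-likelihood test and Benjamini-Hochberg adjustment, 280 passed an adjusted p of 0.05 between the SNP50-treated group and the nontreated controls (1.41%). Of these, 90 were upregulated (0.454%) with a median log2 fold change of 0.49, and 190 were downregulated (0.958%) with a median of -0.47. A change of at least 2-fold was reached by 28 genes (0.141%). Every one of the 280 genes had 3 SNP50 values on one side of all 3 control values, a pattern that 14.1% of all tested genes showed (6.26% higher and 7.87% lower). By gene type, 252 of the 280 were protein-coding, 84 of them upregulated and 168 downregulated. Of the processed pseudogenes, 1 was upregulated and 18 were downregulated. Their counts can share reads with the parent gene, so these calls are uncertain.

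The number of called genes depended on which library was left out. The sign of the called genes did not, but their groups did not overlap, so a change of sign was hardly possible. Leaving out Control replicate 1 gave 78 upregulated and 112 downregulated genes, and leaving out Control replicate 2 gave 84 and 154. When Control replicate 3 was left out, the counts were 1889 and 1824, which is 18.9% of 19611 genes (9.63% upregulated and 9.3% downregulated). All 280 genes were called again without Control replicate 3, all in the same direction. With only the 6 libraries of both groups in the model, nearly all calls were lost: 0 genes were upregulated and 1 was downregulated, and 1076 of 17434 had an unadjusted p under 0.05. The same restriction to the groups compared raised the count for SNP50 against HMSNP from 1760 to 6234. The mean chi-square per gene between 2 libraries of a group was 66.2 to 205 for the controls and 4.58 to 13.8 for SNP50. The cause of the loss was not tested. The median standard error of a log2 fold change was 0.20 with all libraries and 0.15 without Control replicate 3. Leaving out SNP50 replicate 1, 2 or 3 gave 36 and 54, 34 and 64, and 31 and 56 upregulated and downregulated genes. A set of 66 genes (0.333%), 27 upregulated and 39 downregulated, was called with all libraries and in all 6 fits that left out 1 library.

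**Figure D2:**
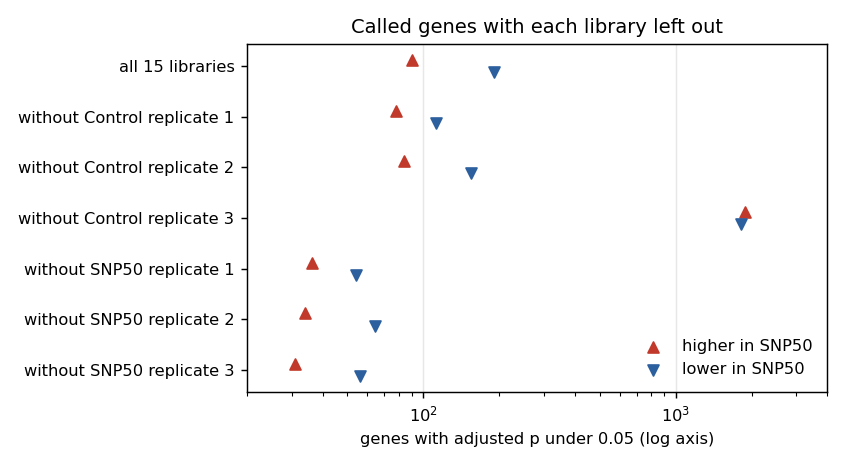
Number of genes with an adjusted p under 0.05 (horizontal axis, log scale) with all 15 libraries and with each Control or SNP50 library left out, upward triangles for genes higher in SNP50 and downward triangles for genes lower. The counts are 90 and 190 with all libraries, 1889 and 1824 without Control replicate 3, and 31 to 84 and 54 to 154 in the other fits.

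The largest decreases included surface, matrix and heme genes. Olr1, the oxidized low density lipoprotein receptor LOX-1 (chr6:129462207-129484128), had 29.0, 31.2 and 18.8 CPM in the controls and 6.99, 7.40 and 7.01 CPM in the SNP50-treated group. The SNP50 libraries lay close together at less than the lowest control, and the log2 fold change was -1.88 ± 0.16 (SE, edgeR adjusted p = 3.82e-05). Hmox1, the inducible heme oxygenase that degrades heme (chr8:75820241-75827217), was the most abundant gene among the 10 largest decreases. It had 1537, 1699 and 1283 CPM in the controls and 538, 569 and 471 CPM in the SNP50-treated group, a log2 fold change of -1.52 ± 0.17 (edgeR adjusted p = 0.00063).

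Lower-expressed genes were also among them. Tgfbi, a secreted matrix protein induced by TGF-β, had 1.58, 1.56 and 1.64 CPM in the controls and 0.30, 0.51 and 0.58 CPM after SNP50 (log2 fold change -1.77 ± 0.24). Cav1, the coat protein of caveolae, had 4.63, 3.64 and 4.32 CPM against 1.38, 1.36 and 1.504 CPM (log2 fold change -1.57 ± 0.16). Both were called in all 6 fits that left out 1 library. The 10 largest decreases also included Serpinb9b (-1.43 ± 0.25), a serpin family member, and the interferon-stimulated genes Rsad2 (-1.33 ± 0.27), Rtp4 (-1.15 ± 0.18) and Cmpk2 (-1.13 ± 0.18).

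Among genes of at least 1 CPM, the 10 largest increases ran from 0.83 to 1.23 on the log2 scale. Tent5c, which encodes a cytoplasmic poly(A) polymerase (chr3:100358944-100396702), had 5.33, 7.32 and 3.31 CPM in the controls and 11.8, 13.4 and 11.9 CPM in the SNP50-treated group, a log2 fold change of 1.22 ± 0.19 (edgeR adjusted p = 0.00573). Hvcn1, the voltage-gated proton channel that supports the phagocyte oxidase (chr5:122344867-122382736), had 2.71, 2.83 and 2.84 CPM in the controls and 5.50, 7.199 and 5.25 CPM after SNP50 (log2 fold change 1.10 ± 0.12, edgeR adjusted p = 0.000477). The 3 control values of Hvcn1 lay close together, and all SNP50 values lay well above them. Hvcn1 overlaps Tctn1 on the opposite strand. Hyal1, a lysosomal hyaluronidase, had 12, 11.5 and 8.33 CPM against 21.4, 19.8 and 22.1 CPM (log2 fold change 0.99 ± 0.14). It overlaps Naa80 and Hyal3 on the same strand, and Naa80 was called as well (0.64), so that their counts are not independent.

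The other 7 of the 10 largest increases were Celsr1 (1.23 ± 0.24), an adhesion receptor of the cadherin family, Asb10 (1.09 ± 0.15), an ankyrin-repeat protein, Ahnak2 (1.02 ± 0.17), a large scaffold protein, Gpr176 (0.98), an orphan G protein-coupled receptor, Tbc1d2 (0.90 ± 0.12), a GTPase-activating protein of Rab7, Rhov (0.85 ± 0.18), an atypical small GTPase, and Tst (0.83 ± 0.18), a mitochondrial sulfurtransferase. Tent5c, Hvcn1, Asb10, Ahnak2, Hyal1 and Tbc1d2 were called in all 6 fits that left out 1 library, Celsr1, Gpr176 and Rhov in 2 of them, and Tst in 1. Below 1 CPM on average, Fabp4, a fatty acid carrier of lipid-loaded macrophages, had 0.30, 0.17 and 0.39 CPM in the controls and 0.91, 0.94 and 0.86 CPM after SNP50. Its groups did not overlap (log2 fold change 1.62 ± 0.27, edgeR adjusted p = 0.00709), and it was called in all 6 fits.

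Among the genes that were called with every library left out in turn, the 10 with the smallest worst-case p included Cd36, Olr1, Gas6, Cav1, Pmp22, Atf3, Hk3, Hvcn1 and Jun. Several of these changed by less than 2-fold but with little spread. Gas6, the bridging ligand that links dying cells to the TAM receptors, had 47.4, 49.4 and 45.8 CPM in the controls and 82.0, 79.9 and 73.7 CPM after SNP50 (log2 fold change 0.72 ± 0.07). Hk3, the myeloid hexokinase, had 64.7, 60.9 and 63.6 CPM against 95.1, 91.1 and 88.4 CPM (log2 fold change 0.54 ± 0.06). Pmp22, a membrane protein best known from myelin, had 34.1, 33.8 and 39.8 CPM against 59.0, 56.9 and 55.0 CPM (log2 fold change 0.67 ± 0.07). Each of these 3 genes had its SNP50 libraries well clear of the controls, with edgeR adjusted p of 9.09e-05 for Gas6 and 0.000477 for both Hk3 and Pmp22.

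Genes that the study itself singled out for SNP50 were chosen on these samples, so their direction is no independent evidence. The printed names Serpib9 and Tgfb1 were read as Serpinb9 and Tgfbi, and no tally is given. The study prints Serpib9 among its genes with a 2-fold change. Here Serpinb9b fell by over 2-fold (-1.43 ± 0.25, edgeR adjusted p = 0.00942) and Serpinb9 did not. The printed name therefore more likely stands for Serpinb9b, and the values of Serpinb9 below are no disagreement with the study. Eqtn, which encodes a sperm acrosome protein, had 0.21, 0.06 and 0.10 CPM in the controls and 0.54, 0.43 and 0.64 CPM after SNP50 (log2 fold change 2.08 ± 0.45), and it was called in 2 of the 6 fits that left out 1 library. Pald1, a phosphatase domain protein, had 107, 109 and 108 CPM in the controls and 81.4, 82.4 and 83.3 CPM after SNP50 (-0.39 ± 0.06, edgeR adjusted p = 0.00392). The noncoding RNA Gm56769 (1.48) and the processed pseudogene Gm9260 (-1.10) were called in all 6 fits. Serpinb9, an inhibitor of granzyme B, had 12.2, 13.3 and 10.2 CPM against 9.49, 10.3 and 9.47 CPM, with overlapping groups (-0.28 ± 0.10, edgeR adjusted p = 0.216). Without Control replicate 3 its edgeR adjusted p was 0.00197.

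**Figure D3:**
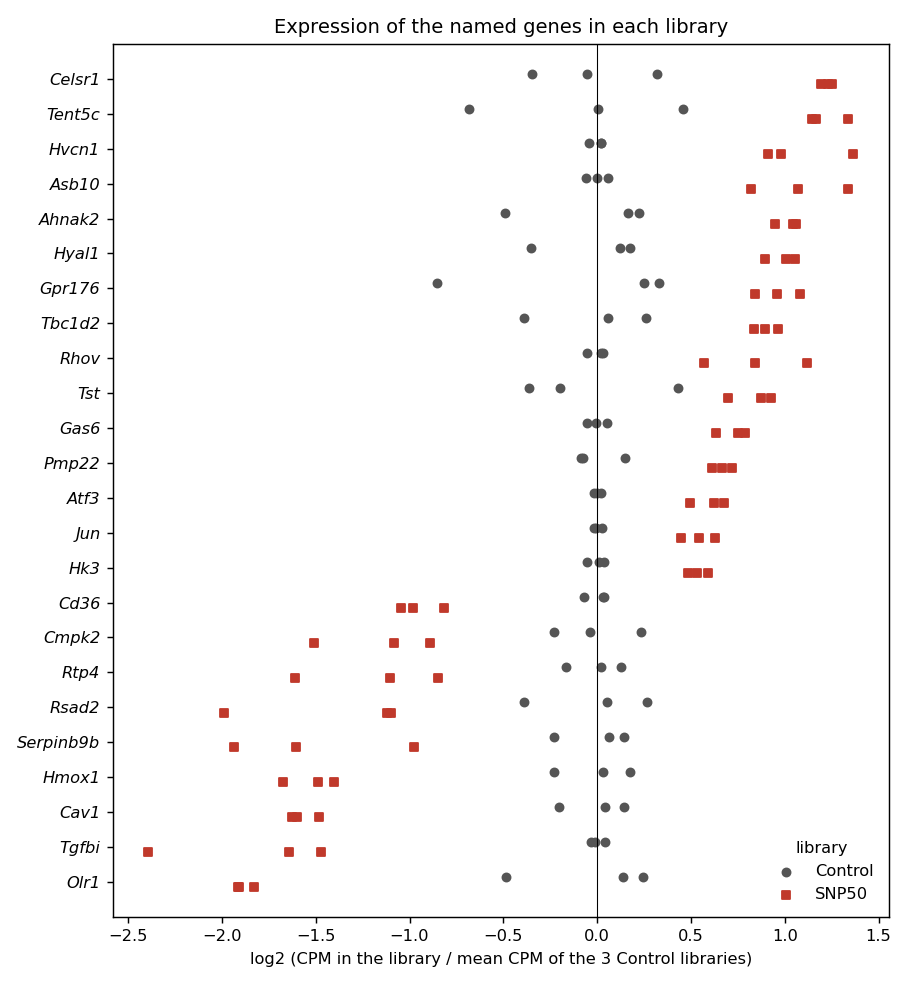
Level of named genes from the 20 largest changes and of named genes most stable to leaving out a library, as log2 of the CPM in each library over the mean of the 3 Control libraries (horizontal axis). Grey circles are the Control libraries and red squares the SNP50 libraries. The 20 largest changes were picked among genes whose groups do not overlap, and the others by their p-values. That the 3 squares lie on one side of the 3 circles therefore follows from the choice of genes. The genes run from Olr1 at a fitted -1.88 to Celsr1 at 1.23.

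The interferon-stimulated genes that passed the test were all downregulated with all libraries. These genes are switched on by a transcription factor complex that contains IRF9 when interferon binds its receptor, and they encode antiviral effectors and sensors. Of 50 members tested, 11 were downregulated and 0 upregulated, and the median log2 fold change was -0.40 against -0.002 over all tested genes. Of all tested genes 0.958% were downregulated and 0.454% upregulated, and without Control replicate 3 it was 9.3% and 9.63%. These shares belong beside the counts of each list below. Relative to the control mean, the list's median stood at 0.01, 0.09 and -0.13 in the controls and at -0.42, -0.26 and -0.32 in the SNP50 libraries. Irf7, the interferon regulatory factor that amplifies the response, had 7.89, 7.08 and 9.24 CPM in the controls and 4.12, 5.64 and 5.06 CPM after SNP50 (log2 fold change -0.71 ± 0.13, edgeR adjusted p = 0.0139). Cxcl10, a chemokine for T cells, had 2.92, 2.75 and 3.70 CPM against 1.62, 1.84 and 1.28 CPM (-0.98 ± 0.17, edgeR adjusted p = 0.0101). Rsad2, the antiviral enzyme viperin, had 1.95, 2.26 and 1.43 CPM against 0.47, 0.88 and 0.86 CPM (edgeR adjusted p = 0.0268).

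The groups did not overlap in these genes, but the number of calls changed with the library left out. The count of downregulated interferon-stimulated genes was 25 without Control replicate 3 (with 1 upregulated), 4 and 5 without Control replicates 1 and 2, and 2, 4 and 2 without SNP50 replicates 1, 2 and 3. Rtp4, a receptor chaperone, and Cmpk2, a mitochondrial nucleotide kinase, were called in every fit. The others called were Ifit3 (-0.87) of the RNA-binding IFIT family, the DNA-sensing family member Ifi204 (-0.57), Ifi44 (-0.56), the RNA helicase Dhx58 (-0.55), Irf9 (-0.48) and Oasl1 (-0.48). Not all members moved. Ifit2 (-0.03), Usp18 (0.08) and Bst2 (0.02) lay near 0 and did not pass the test. Ifi204 belongs to a family of similar genes, and Rtp4 overlaps Gm45338 on the same strand, so reads of these loci may have been split.

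The promoters of the downregulated interferon-stimulated genes are shown because they hold the letters of the interferon-stimulated response element. In windows from 250 bases before to 50 bases after the start of the transcript tagged as Ensembl canonical on GRCm39, the motif GAAANNGAAA was searched on both strands. It was found in 28 of 50 promoters of the list and in 6 of the 11 downregulated members, compared with 3.54% of the promoters of all 13135 protein-coding genes tested. The following 5 stretches are the members with a match before the start, in the direction of the gene, with matches in capitals. Overlapping matches run together; matches that begin with TTTC are the motif read from the other strand.
Rsad2 (chr12:26506532-26506601, minus strand): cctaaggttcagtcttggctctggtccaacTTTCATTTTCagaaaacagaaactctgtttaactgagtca
Rtp4 (chr16:23428565-23428645, plus strand): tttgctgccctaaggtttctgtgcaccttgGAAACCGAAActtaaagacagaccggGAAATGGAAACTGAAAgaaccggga
Cxcl10 (chr5:92496922-92496991, minus strand): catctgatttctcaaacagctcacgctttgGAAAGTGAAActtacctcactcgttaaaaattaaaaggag
Ifi204 (chr1:173594611-173594676, minus strand): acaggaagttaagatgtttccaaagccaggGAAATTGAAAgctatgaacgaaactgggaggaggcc
Ifit3 (chr19:34560743-34560846, plus strand): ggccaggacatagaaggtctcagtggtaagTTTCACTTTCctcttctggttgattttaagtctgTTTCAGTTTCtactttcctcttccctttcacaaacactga
A match is a description of the letters and not a measured binding site. The canonical start of Rtp4 lies inside the annotated gene, which has longer transcripts that begin upstream at position 23337811 of chromosome 16. In Rtp4 3 of the 4 matches lie before the start and are shown, and in Cxcl10 the match begins 213 bases before it.

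The other motifs were searched in the same windows. TTTNGCGC, read by E2F factors, was in 15 of 61 promoters of the DNA replication list against 2.34% of all promoters, and TGATGNAA, a form of the ATF4 site, was in 10 of 40 of the ATF4 list against 2.57%. TGACNNNGC, the core of the NRF2 site, was in 6 of 37 promoters of the NRF2 list against 13.7%. In the immediate early list, TGANTCA (AP-1) was in 1 of 43 promoters against 5.4% of all, and TGACGTCA (CRE) in 7 of 43 against 3.16%. The AP-1 letters were in 28 of the 252 promoters of called genes. Over the lists searched they ran from 0 of 28 promoters (mitosis) to 11 of 50 (interferon-stimulated genes). In the lysosomal list, CACGTG (the E-box) was in 15 of 57 against 9.84%, and TCACGTGA (the CLEAR element, which contains an E-box) in 6 of 57 against 1.6%. GGGANNTTCC (NF-κB) was in 1 of 30 promoters of the NF-κB list against 1.67%, and ATCACNCCAC (the sterol element) in 2 of 36 of the sterol list against 0.175%. Among the 9 downregulated NRF2 targets, Gclm and Srxn1 held the NRF2 letters, and among the 6 upregulated replication genes Cdt1, Cdc6 and Orc1 held the E2F letters. The ATF4 letters were in 2 of the 11 called members of the ATF4 list, the upregulated Ddit3 and Atf3. Of the 4 called lysosomal genes 1 held the E-box and 0 the CLEAR element. The sterol element was in 0 of 8 called sterol genes, and the NF-κB letters in 0 of 6 called NF-κB genes.

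Receptors for lipids, fungi and complement were among the genes that passed the test. Of 39 scavenger, pattern and phagocytic receptors tested, 7 were downregulated and 2 upregulated, with a median of -0.07. Cd36, which takes up oxidized lipoproteins and fatty acids, had 250, 249 and 232 CPM in the controls and 118, 123 and 139 CPM after SNP50 (log2 fold change -0.95 ± 0.08, edgeR adjusted p = 3.55e-05). C5ar1, the receptor of the complement fragment C5a, had 141, 129 and 165 CPM against 91.1, 91.2 and 91.9 CPM (-0.67 ± 0.09). The C-type lectin Clec7a (dectin-1, the β-glucan receptor) had 13.3, 11.9 and 13.8 CPM against 7.93, 9.07 and 8.29 CPM (-0.62 ± 0.09), and its relative Clec4n (dectin-2) changed by -0.77 ± 0.11. Trem1 (-0.42) and Clec5a (-0.29), activating receptors of myeloid cells, completed the downregulated members.

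Cd200r4, an activating receptor of the CD200R family, was upregulated from 5.48, 5.78 and 5.73 CPM to 10.1, 9.41 and 9.76 CPM (log2 fold change 0.79 ± 0.10, edgeR adjusted p = 0.000951), beside Gas6. It has close paralogs, so its counts may be shared among them. Of the list, 5 downregulated and both upregulated genes were called in all fits, and the downregulated count was 11 without Control replicate 3 and 5 without any 1 SNP50 library. The macrophage scavenger receptor Msr1 had 599, 642 and 553 CPM in the controls and 560, 589 and 592 CPM after SNP50, with overlapping groups (-0.04 ± 0.06).

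Targets of TGF-β and genes of adhesion and the actin cytoskeleton were downregulated where they passed. Of 28 TGF-β pathway genes and targets, 7 were downregulated and 0 upregulated (median -0.11). Beside Tgfbi they included the Notch ligand Jag1 (-0.88 ± 0.20), the metalloproteinase inhibitor Timp2 (-0.60 ± 0.08), the receptor Acvrl1 (-0.44 ± 0.10) and the feedback inhibitor Pmepa1 (-0.38 ± 0.09). Timp2 had 19.7, 20.1 and 19.6 CPM in the controls and 12.6, 12.7 and 13.9 CPM after SNP50, and it kept its call in every fit. The ligand Tgfb1 had 242, 229 and 274 CPM against 260, 266 and 257 CPM, with overlapping groups (0.07 ± 0.08). The list's downregulated count was 16 without Control replicate 3 (with 2 upregulated), and without SNP50 replicates 1, 2 and 3 it was 4, 3 and 4.

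Of 44 genes for actin, adhesion and caveolae, 7 were downregulated and 0 upregulated (median -0.12). Cd44, the hyaluronan receptor, had 367, 383 and 315 CPM in the controls and 234, 252 and 257 CPM after SNP50 (log2 fold change -0.52 ± 0.08, edgeR adjusted p = 0.00286). Actg1, the cytoplasmic gamma actin, had 1198, 1213 and 1373 CPM against 937, 917 and 955 CPM (-0.43 ± 0.06). Arpc2, a subunit of the actin-nucleating Arp2/3 complex, had 788, 795 and 1063 CPM against 652, 652 and 651 CPM (-0.44 ± 0.09). Control replicate 3 was the highest library for both Actg1 and Arpc2, and without it Arpc2 changed by -0.29. Vasp (-0.41), Cav2 (-0.39) and Zyx (-0.34) also passed. The count was 22 without Control replicate 3 (with 4 upregulated) and 3, 3 and 4 without SNP50 replicates 1, 2 and 3.

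A minority of the genes of heme handling and of the NRF2 antioxidant response passed the test. Of 37 tested, 9 were downregulated and 0 upregulated, and the median was -0.22. Besides Hmox1 they included the heme transporter Slc48a1, which had 187, 194 and 202 CPM in the controls and 118, 122 and 117 CPM after SNP50 (log2 fold change -0.71 ± 0.09, edgeR adjusted p = 0.00103), and the iron exporter ferroportin, Slc40a1 (-1.002 ± 0.23, edgeR adjusted p = 0.0474). Gclm, the modifier subunit of the rate-limiting enzyme of glutathione synthesis, had 372, 427 and 339 CPM against 212, 233 and 221 CPM (-0.77 ± 0.11, edgeR adjusted p = 0.00284). The aldo-keto reductase Akr1b8 changed by -0.61, glutaredoxin Glrx by -0.43, malic enzyme Me1 and sulfiredoxin Srxn1 both by -0.40, and glutathione reductase Gsr by -0.29. The NRF2 letters TGACNNNGC were in 6 of 37 promoters of this list and in 13.7% of all promoters, so a match does not set the list apart. Of the 9 downregulated members, Gclm and Srxn1 held them and the others, Hmox1 among them, did not. The stretch of the Gclm promoter that holds these letters is shown with the match in capitals, read from the other strand.
Gclm (chr3:122039042-122039110, plus strand): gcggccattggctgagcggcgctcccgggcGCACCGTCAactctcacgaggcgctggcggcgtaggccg

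Hmox1, Gclm, Slc48a1 and Akr1b8 were called in all fits, and the others in 1 to 3 of the 6 fits that left out 1 library. Not every well known NRF2 target passed. Gclc, the catalytic partner of Gclm, had 215, 220 and 156 CPM against 157, 172 and 175 CPM with overlapping groups (-0.23 ± 0.10), and Txnrd1 and Slc7a11 also overlapped. In each of these 3 genes Control replicate 3 was the lowest of the 6 libraries, and without it they changed by -0.38, -0.34 and -0.76. The ferritin subunits Ftl1 (0.08 ± 0.14) and Fth1 (-0.10 ± 0.15), which store iron, did not pass the test. The downregulated count of the list was 16 without Control replicate 3 (with 3 upregulated) and 4 without any 1 SNP50 library.

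Targets of ATF4 split between members. Of 40 genes of the integrated stress response, 9 were downregulated and 2 upregulated, with a median of -0.20. Downregulated were enzymes and transporters of amino acid supply: Slc1a4 (-0.81 ± 0.14), Bcat1 (-0.39 ± 0.05), Slc7a5 (-0.36 ± 0.07), Asns (-0.33 ± 0.07), Mthfd2 (-0.30 ± 0.06) and Psat1 (-0.26 ± 0.06), along with the regulators Ddit4 (-0.53), Trib3 (-0.50) and Atf5 (-0.49). Bcat1, which transaminates branched-chain amino acids, showed little spread, with 175, 177 and 182 CPM in the controls and 133, 137 and 137 CPM after SNP50. Atf3, a stress-induced repressor of the ATF family, had 30.8, 31.1 and 31.6 CPM in the controls and 49.7, 48.0 and 44.0 CPM after SNP50 (log2 fold change 0.60 ± 0.07, edgeR adjusted p = 0.000477). Ddit3, the transcription factor CHOP, had 9.56, 9.28 and 10.3 CPM against 17.2, 13.3 and 14.0 CPM (0.61 ± 0.10, edgeR adjusted p = 0.00573).

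Atf3 and Ddit3 were thus upregulated while the amino acid genes of the same list were downregulated, and both kept their call in every fit. Ddit3 overlaps Mars1 on the opposite strand. Atf4 itself had 270, 276 and 350 CPM in the controls and 281, 252 and 249 CPM after SNP50, with overlapping groups (-0.20 ± 0.09). The downregulated count was 20 without Control replicate 3 and 3, 4 and 3 without SNP50 replicates 1, 2 and 3.

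A minority of the enzymes of sterol and unsaturated fatty acid synthesis passed the test, with small changes. These genes are driven by SREBP factors when cellular sterols are low. Of 36 tested, 8 were downregulated and 0 upregulated, 33 had a fitted change below 0, and the median was -0.24. Fads2, a fatty acid desaturase, had 382, 418 and 360 CPM in the controls and 258, 284 and 271 CPM after SNP50 (log2 fold change -0.51 ± 0.07, edgeR adjusted p = 0.00286). Cyp51, the lanosterol demethylase, had 126, 134 and 155 CPM against 102, 102 and 102 CPM (-0.44 ± 0.07, edgeR adjusted p = 0.0068). Both were called in every fit. The desaturases Scd2 (-0.46) and Fads1 (-0.40), the sterol enzymes Msmo1 (-0.49) and Sqle (-0.32), and Me1 were also downregulated. The downregulated count of the list was 23 without Control replicate 3 and 2, 4 and 4 without SNP50 replicates 1, 2 and 3.

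Immediate early genes moved in both directions. Of 43 tested, 4 were upregulated and 5 downregulated (median -0.12). Jun, the AP-1 subunit, had 59.0, 57.7 and 57.2 CPM in the controls and 84.4, 89.7 and 79.0 CPM after SNP50 (log2 fold change 0.54 ± 0.06, edgeR adjusted p = 0.000477). The kinase Pim1 had 17.5, 16.1 and 18.3 CPM against 25.1, 24.3 and 23.7 CPM (0.49 ± 0.07), and Plk2, a stress kinase that is also a p53 target, changed by 0.55 ± 0.12. Rcan1, the feedback inhibitor of calcineurin, had 191, 189 and 211 CPM against 122, 123 and 131 CPM (-0.65 ± 0.07, edgeR adjusted p = 0.000477). Trib1 (-0.47), Sgk1 (-0.42), Klf4 (-0.40) and Btg1 (-0.38) were the other downregulated members. Fos, the usual partner of Jun, had 107, 94.5 and 109 CPM against 84.8, 85.4 and 86.2 CPM, which did not overlap but did not pass the test (-0.28 ± 0.09, edgeR adjusted p = 0.208). The downregulated count of the list was 9 without Control replicate 3, 3 without Control replicate 1 or 2, and 1, 1 and 2 without SNP50 replicates 1, 2 and 3, while the upregulated count ran from 3 to 6.

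Cytokine genes gave few calls. Cxcl10 was the only 1 of 28 tested cytokines and chemokines that passed, and Il6, Il12a and Il12b had too few counts to be tested. The list's median of -0.39 lay below 0, and 4 members were higher and 9 lower without overlap, beside 6.26% and 7.87% of all genes. Cxcl10 lost its call without SNP50 replicate 1 or 3. Without Control replicate 3 the list held 4 upregulated and 5 downregulated genes, beside 9.63% and 9.3% of all genes. Tnf had 50.9, 42.0 and 56.9 CPM in the controls and 67.4, 58.1 and 64.1 CPM after SNP50, a difference of 0.34 ± 0.14 that did not pass (edgeR adjusted p = 0.324). Ccl3, a chemokine of activated macrophages, had 48.1, 46.0 and 71.6 CPM against 87.2, 77.8 and 74.6 CPM (0.53 ± 0.15, edgeR adjusted p = 0.115). In both genes Control replicate 3 was the control nearest to the SNP50-treated group, and without it Tnf changed by 0.44 (edgeR adjusted p = 0.0248) and Ccl3 by 0.76 (edgeR adjusted p = 0.000163).

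Of 30 genes for NF-κB subunits, inhibitors and targets, 5 were downregulated and 1 upregulated (median -0.01). Ptgs2, the inducible prostaglandin synthase COX-2, had 47.2, 48.2 and 32.2 CPM in the controls and 21.5, 24.2 and 25.2 CPM after SNP50 (log2 fold change -0.85 ± 0.16, edgeR adjusted p = 0.0133). The costimulatory receptor Cd40 (-0.64), the kinase scaffold Ikbkg (-0.45), Tnfaip8 (-0.32) and the NOD-signaling kinase Ripk2 (-0.31) were also downregulated, whereas the maturation marker Cd83 was upregulated from 18.3, 20.7 and 19.5 CPM to 25.5, 26.7 and 26.1 CPM (0.42 ± 0.08). Nfkbia, the inhibitor induced by NF-κB, overlapped (0.02 ± 0.14). The calls of this list were lost without any 1 SNP50 library for all 5 downregulated genes, and without Control replicate 1. When Control replicate 3 was left out, 8 members were downregulated and 7 upregulated, beside 9.3% and 9.63% of all genes. Of 23 inflammasome genes 0 passed, with Nlrp3 at 0.04 ± 0.09. When Control replicate 3 was left out, 2 were upregulated and 4 downregulated, beside 9.63% and 9.3% of all genes.

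Lysosomal genes were upregulated where they passed. Of 57 lysosomal and proton pump genes, 4 were upregulated and 0 downregulated, with a median of 0.06. Beside Hyal1 these were Naglu, a heparan sulfate hydrolase, with 65.3, 61.1 and 59.5 CPM in the controls and 79.5, 82.4 and 77.0 CPM after SNP50 (log2 fold change 0.36 ± 0.06, edgeR adjusted p = 0.00709), the lysosomal cysteine transporter subunit Mfsd12 (0.39 ± 0.06) and the glycoprotein Gpnmb (0.39 ± 0.07). Gpnmb was abundant, with 630, 667 and 560 CPM against 784, 844 and 797 CPM. The abundant lysosomal proteins Lamp1 (-0.04 ± 0.06) and Ctsd (-0.02 ± 0.10) overlapped between groups. Without Control replicate 3 the count of upregulated members was 27 of 57, against 9.63% of all genes, and 3 were downregulated.

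In the list for Rag GTPases and mTORC1 sensing, Flcn, which encodes folliculin, was the 1 of 40 members that was upregulated, from 46.2, 44.9 and 41.5 CPM to 62.1, 60.1 and 56.6 CPM (log2 fold change 0.43 ± 0.07, edgeR adjusted p = 0.00464). Ddit4, Sesn1 (-0.31) and Tfe3 (-0.25) were downregulated. Fnip2, the partner of folliculin, had 209, 266 and 106 CPM in the controls and 281, 329 and 324 CPM after SNP50. Its groups did not overlap, but it did not pass the test (0.69 ± 0.22, edgeR adjusted p = 0.168). Flcn was called in every fit. The counts were 12 upregulated and 8 downregulated without Control replicate 3, and 1 and 1 without any 1 SNP50 library.

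Few DNA replication genes passed the test. Of 61 tested, 6 were upregulated and 0 downregulated, 54 had a fitted change above 0, and the median was 0.16. Pold1, the catalytic subunit of DNA polymerase delta, had 115, 101 and 110 CPM in the controls and 149, 138 and 139 CPM after SNP50 (log2 fold change 0.39 ± 0.06, edgeR adjusted p = 0.00709) and was called in every fit. The licensing factors Cdt1 (0.39), Orc1 (0.30) and Cdc6 (0.28), the chromatin assembly subunit Chaf1b (0.33) and the transcription factor Mybl2 (0.27) were called in 1 or 2 of the 6 fits that left out 1 library. Relative to the control mean, the list's median stood at -0.02, -0.05 and 0.05 in the controls and at 0.19, 0.16 and 0.19 in the SNP50 libraries. Without Control replicate 3 the upregulated count was 40 (with 2 downregulated), without Control replicates 1 and 2 it was 3 and 2, and without any 1 SNP50 library it was 1. Of 28 mitosis genes 0 passed (median 0.01), and 3 were upregulated and 2 downregulated without Control replicate 3, where 18.9% of all genes passed.

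**Figure D4:**
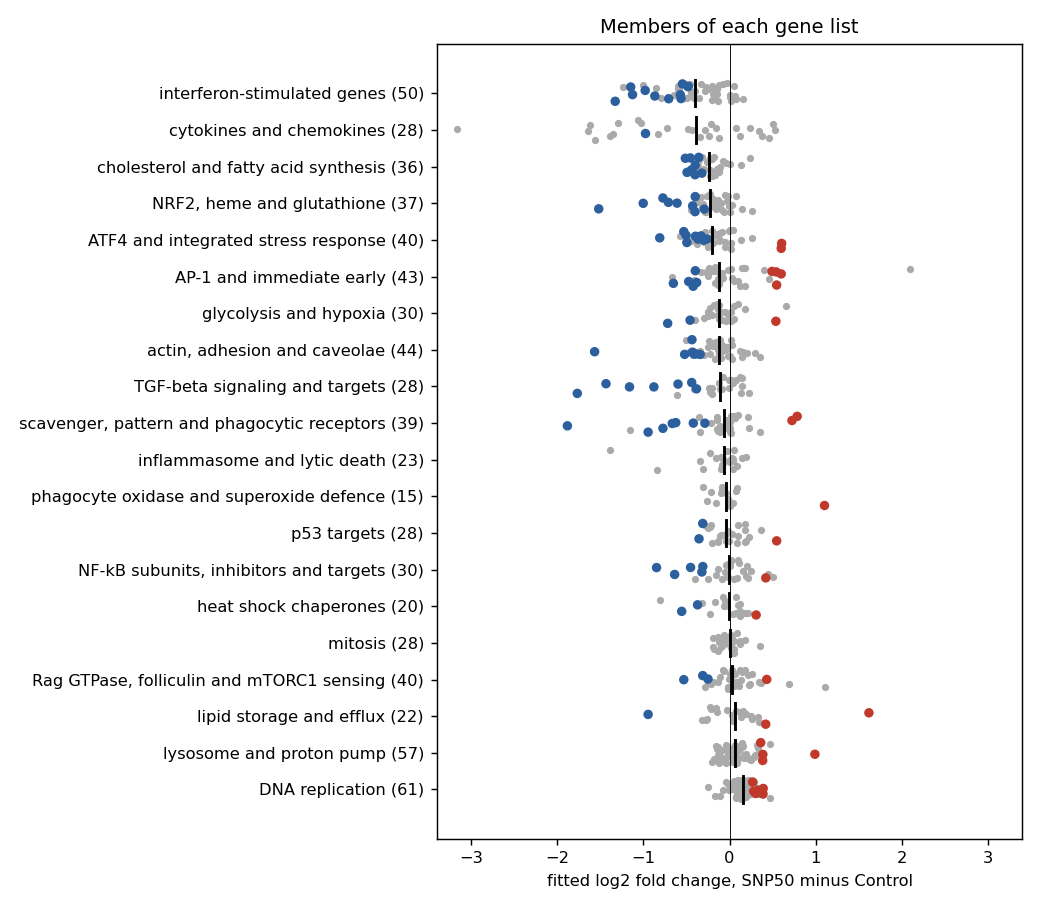
Fitted log2 fold change of SNP50 over Control (horizontal axis) for the tested members of 20 gene lists (number in brackets), ordered by their median (black bar). Red and blue points passed the test as higher or lower, and grey points did not. The medians run from -0.40 for interferon-stimulated genes to 0.16 for DNA replication.

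The remaining lists gave 1 to 3 calls each. Among 28 p53 targets, Plk2 was upregulated while Cdkn1a, the cell cycle inhibitor p21 (-0.35 ± 0.08), and Sesn1 were downregulated. Hvcn1 was the 1 call among 15 oxidase genes, and the catalytic subunit Cybb overlapped with 852, 1061 and 540 CPM in the controls and 667, 841 and 803 CPM after SNP50. Of 22 lipid storage and efflux genes, Fabp4 and the cholesterol exporter Abcg1 (0.42 ± 0.10) were upregulated and Cd36 downregulated. Of 30 genes of glycolysis and hypoxia, Hk3 was upregulated and the hypoxia-responsive Ankrd37 (-0.72 ± 0.15) and Bnip3 (-0.46 ± 0.09) downregulated. Of 20 chaperones, the constitutive Hspa8 was upregulated (0.31 ± 0.06), whereas the inducible Hspa1b (-0.56 ± 0.09) and its co-chaperone Bag3 (-0.37 ± 0.06) were downregulated. Hspa1b has a near-identical copy, Hspa1a, which was listed at 0.26 to 0.89 CPM, so reads may have been split between them. Without Control replicate 3 these 5 lists held 4, 7, 6, 2 and 6 upregulated and 8, 4, 6, 12 and 5 downregulated genes, in the order given. Of all genes 9.63% were upregulated and 9.3% downregulated in that fit. The 3 calls among p53 targets were lost without any 1 SNP50 library, and the call of Hspa8 likewise.

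Direct comparisons with other particles used no control library in the contrast. Between the SNP50- and SNP100-treated groups, both nonporous but differing in diameter and dose, 0 of 19839 genes (0%) passed edgeR's quasi-likelihood test, although 867 had an unadjusted p under 0.05. DESeq2 called 1 gene. Without Control replicate 3 in the model, 85 genes passed. For the leading genes the difference of SNP50 from SNP100 was -0.43 for Olr1, -0.05 for Hmox1 and -0.26 for Tent5c, with an edgeR adjusted p of at least 0.903 in each. Against the controls, Olr1 changed by -1.88 with SNP50 and -1.45 with SNP100, and Tent5c by 1.22 and 1.48. These pairs share their control libraries and differ in dose.

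Between SNP50 and HMSNP, which differ in porosity, diameter and dose, 1760 genes passed (8.87%), 838 higher in the SNP50-treated group (4.22%) and 922 lower (4.65%). Of the ATF4 list, 27 of 40 members were higher in the SNP50-treated group and 1 lower. Trib3 was 2.21 higher on the log2 scale (edgeR adjusted p = 1.65e-08). This does not mean a rise with SNP50. Over the controls the list's median was -0.20 with SNP50 and -0.66 with HMSNP, and Trib3 changed by -0.50 and -2.71. Of the sterol and fatty acid list, 26 of 36 were lower after SNP50 and 0 higher, with a median of -0.56. Over the controls this list's median was -0.24 with SNP50 and 0.335 with HMSNP. Interferon-stimulated genes were lower after SNP50 in 17 of 50 and higher in 1. Cd36 differed by -1.32 on the log2 scale (edgeR adjusted p = 1.08e-07), while Olr1 did not differ past the threshold (0.30, edgeR adjusted p = 0.254).

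Set side by side over the same controls, the genes called with SNP50 had these values in the other groups. The 90 upregulated genes had a median log2 fold change of 0.49 with SNP100, 1.51 with MSNP and 0.10 with HMSNP. The 190 downregulated genes had medians of -0.36, -0.51 and -0.18. Gas6 changed by 0.66 with SNP100, 2.56 with MSNP and 0.01 with HMSNP, and Pmp22 by 0.75, 3.02 and 0.83. Serpinb9b, which was downregulated after SNP50, stood at -0.65, 1.18 and 0.06. Because all 4 groups share the control libraries, a control that stands apart moves all of these values together.

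**Figure D5:**
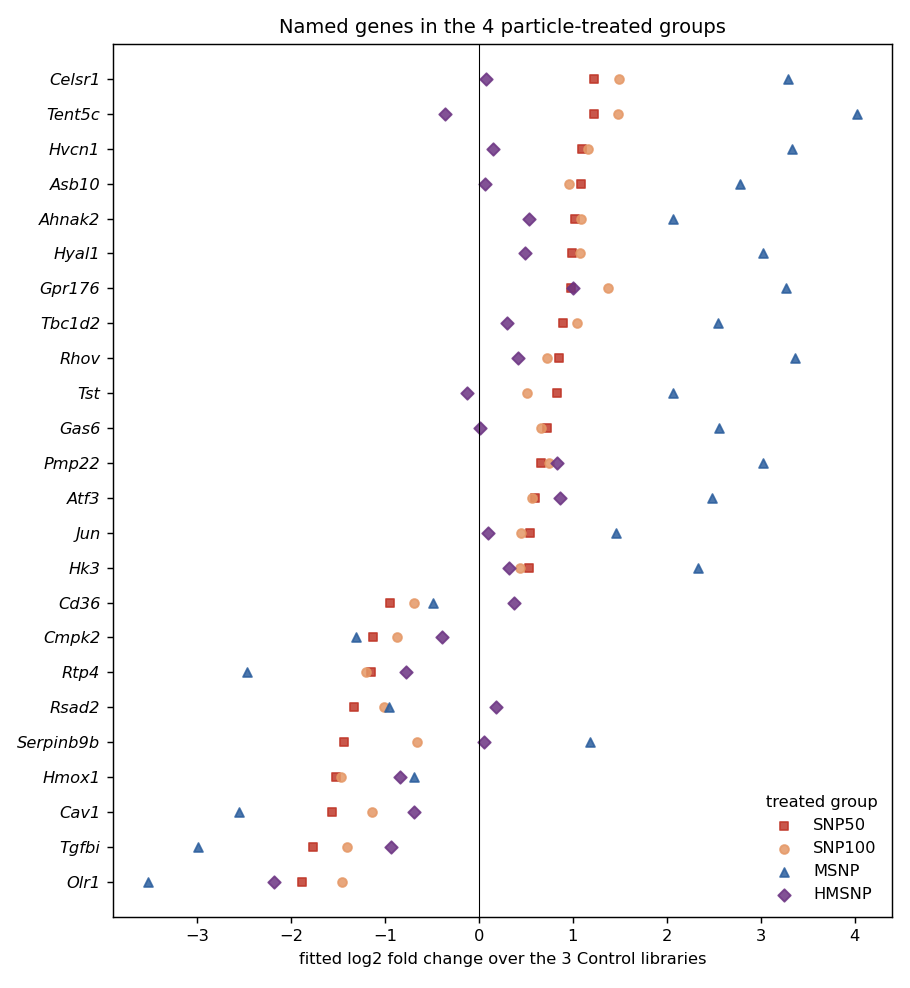
Fitted log2 fold change over the same 3 Control libraries (horizontal axis) of the named genes in the SNP50 (red squares), SNP100 (orange circles), MSNP (blue triangles) and HMSNP (purple diamonds) groups, which differ in dose. For Olr1 the 4 values are -1.88, -1.45, -3.51 and -2.18, and for Tent5c they are 1.22, 1.48, 4.02 and -0.36.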

How the data were processed

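Poly(A) RNA libraries of RAW264.7 cells were prepared with a directional kit, and the authors mapped the reads to GRCm39. Per the labels, the submitters' processing notes name STAR 2.7.9a, cutadapt 1.16 and featureCounts 1.6.3. The authors deposited whole-number counts per gene and library without normalization, for 57186 genes. Whether counting used strand is not given in the sources used here.

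A gene was tested if its counts added up to 10 or more across all 15 libraries, which left 19839. A single model of all groups was fitted in edgeR 4.0.16 (R 4.3.3) after TMM scaling. P-values of the quasi-likelihood F test were adjusted by Benjamini-Hochberg (threshold 0.05), and each SE is the size of the log2 fold change over the square root of F. Symbols, positions and promoter sequences were taken from GENCODE vM39 on GRCm39, where 556 identifiers had no entry. Dose and diameter came from the study's methods. Alternatives used DESeq2 1.42.0 and limma 3.58.1. The steps were tested on simulated data.

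Members, gene lists and tests were chosen with earlier results of these data known. Named genes were the 10 largest increases and 10 largest decreases (adjusted p under 0.05, mean of at least 1 CPM, groups not overlapping), the 10 with the smallest worst-case p over all fits with 1 library left out, list members, and genes the study names for SNP50. No set test was run on the lists. Some genes that met these rules are not reported here.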

Additional observations from a re-analysis of the deposited data

How the results depend on the processing

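All 280 called genes kept their direction in the 15 alternatives. These refit the same libraries, and the groups of these genes did not overlap, so another outcome was hardly possible. With all libraries 90 genes were higher, 190 lower and 28 changed at least 2-fold. Leaving out 1 library gave 31 to 1889 higher, 54 to 1824 lower and 16 to 148 at least 2-fold, with the largest counts all without Control replicate 3. Other settings that moved a count by over 1.5 times follow. DESeq2 gave 249 higher and 431 lower. Limma voomWithQualityWeights, which gave Control replicate 3 a weight of 0.0468, gave 2039, 1779 and 563. Only the 6 libraries compared gave 0 higher, 1 lower and 1 at least 2-fold by edgeR, with 1076 of 17434 genes at an unadjusted p under 0.05. Without a filter 115 were lower, and with filterByExpr 290. The transcript length offset gave 169 and 333, and with Control replicate 3 left out as well 1611, 1887 and 165. RLE scaling stayed within 1.5 times.

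No pairing by replicate number was assumed. Same-numbered SNP50 and Control libraries deviated with correlations of -0.434, 0.573 and -0.517. With 3 libraries per group and Control replicate 3 standing apart, these values cannot decide whether the libraries were paired. The replicate block gave 65 higher, 115 lower and 22 at least 2-fold. For SNP50 against SNP100 the count was 0 to 85 without single libraries, 1 by DESeq2, 115 by limma voomWithQualityWeights and 196 with the length offset and without Control replicate 3. For SNP50 against HMSNP (1760) leaving out 1 library gave 688 (without SNP50 replicate 1) to 6491 (without Control replicate 3), DESeq2 gave 2780, limma voomWithQualityWeights 6833, only the 6 libraries 6234 and the length offset without Control replicate 3 6213. The cause of these shifts was not tested.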
